A study of Homo sapiens with 32 samples.

Results

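The proteasome subunit genes were followed in RNA of 2 human cell lines, HEK293T (an embryonic kidney line that carries the SV40 large T antigen) and U2OS (an osteosarcoma line). The members were 42 genes listed by symbol, ADRM1 among them and the rest PSM genes. They covered the 20S core, the 19S regulatory particle, their inducible subunits, the PSMD assembly chaperones and the PSME activators. All 42 were found among the 60107 genes of the count table. The study asked how cells respond to a loss of ATM, a kinase of the DNA damage response, or to camptothecin (CPT), which traps topoisomerase I on DNA. Its 32 libraries were labelled HEK293T DMSO (8 libraries), HEK293T CPT (4), HEK293T ATM KO (4), U2OS WT (4), U2OS ATM KO (4), U2OS CPT (4) and U2OS DMSO (4), where DMSO is the vehicle and WT the parental line. Per the labels, HEK293T cells were given CPT or vehicle for 24 h and left to recover for 48 h. U2OS cells labelled WT or ATM KO grew untreated for 72 h. No times were taken from the labels for U2OS CPT, U2OS DMSO and HEK293T ATM KO. For drug treatments in general, the study's methods describe new medium after 24 h and harvest 48 h later, unless stated otherwise. ATM knockout lines are described there as picked clones of U2OS and HEK293, with none of HEK293T. For HEK293T the study reports RNAseq after ATM inhibition. The label HEK293T ATM KO thus differs from the study's account, and it is kept here only as a name. No other genetic change or treatment was given for these groups.

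The proteasome is the protease that removes ubiquitin-tagged proteins. Its barrel, the 20S core, is built of PSMA subunits, which gate the entrance, and PSMB subunits, of which PSMB5, PSMB6 and PSMB7 carry the catalytic sites, and the 19S particle binds ubiquitin, unfolds the substrate with a ring of PSMC ATPases and feeds it into the core. Interferon-exposed and immune cells replace the catalytic subunits with PSMB8, PSMB9 and PSMB10 to form the immunoproteasome, which makes peptides for MHC class I, and the factor NFE2L1 raises transcription of most subunits when the proteasome is inhibited.

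Libraries held 1232674 to 6362433 counts on genes. Levels are given as scaled CPM, that is, CPM adjusted by TMM normalization factors over all 32 libraries. Since each transcript is counted once at its 3′ end, levels can be set side by side between genes without a length correction. This holds only where reads were assigned to a single gene, and overlaps of members with other annotated genes are given below. A floor of 3 counts corresponded to 0.458 to 2.64 scaled CPM, and floors and count intervals cover counting error only. Of the 32 labels, 14 went against the cell line seen in the RNA. The summed level of 7 U2OS markers (among them CD44, CAV1 and THBS1) was 1192 to 2214 scaled CPM in 16 libraries and 129 to 201 in the other 16, which are called U2OS-like and HEK293T-like here, and 0 to 3 of the U2OS markers were at 0 in a HEK293T-like library. The 7 HEK293T markers separated them less, at 341 to 677 against 306 to 499 scaled CPM, with 0 to 3 of them at 0 in a U2OS-like library. LIN28B, NEFM, INA and ZIC2 were higher in every HEK293T-like library, ZIC2 at 109 to 168 against 0 to 1.41 scaled CPM, whereas L1CAM ran against its list, at 0.639 to 14.9 scaled CPM in HEK293T-like and 145 to 361 in U2OS-like libraries, and SOX11 and NEFL overlapped with the higher median in U2OS-like ones. The libraries labelled HEK293T replicates 2 to 8 were U2OS-like and those labelled U2OS replicates 10 to 16 were HEK293T-like. Libraries are therefore named by their labels, and these 14 are not read as the effect of any treatment or knockout. ATM RNA did not pass the test in the libraries labelled ATM KO. It stood at 51.5, 52.5, 67.3 and 55.1 scaled CPM under the HEK293T ATM KO label against 63.0, 72.9, 52.0 and 51.1 in HEK293T DMSO (log2 difference -0.06, adjusted p = 0.98), and at 36.5, 34.8, 28.6 and 27.9 under the U2OS ATM KO label against 25.3, 21.1 and 31 in its HEK293T-like WT controls (0.32, adjusted p = 0.15). A 3′ count outside an edited exon, or of an inhibited kinase, need not move. The labels of replicates 10 to 16 went against their line, so their values are no check of a knockout. In the U2OS-like libraries labelled HEK293T CPT, ATM stood at 66.9, 61.2, 61.1 and 35.4 scaled CPM, against 78.2, 59.3 and 65.6 under DMSO. The log2 difference there was -0.31 (adjusted p = 0.34, edgeR's quasi-likelihood test).

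The region upstream of PSMB8, PSMB9 and PSMD5 is shown because their scaled CPM was lower in every HEK293T-like library than in any U2OS-like one, with 0 to 3 counts of PSMB8, 0 to 10 of PSMB9 and 0 to 4 of PSMD5 in a HEK293T-like library. Each line is read in the direction of the gene, lies within the 250 bases before its RefSeq start on GRCh38.p14 and leaves out annotated UTR bases, and capitals mark matches to the motifs searched. These stretches lie at chr6:32844704-32844835 (minus strand) for PSMB8, at chr6:32853979-32854160 (plus strand) for PSMB9 and at chr9:120842985-120843172 (minus strand) for PSMD5.
PSMB8: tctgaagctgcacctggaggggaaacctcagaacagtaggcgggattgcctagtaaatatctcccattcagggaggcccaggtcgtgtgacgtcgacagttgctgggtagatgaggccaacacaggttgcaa
PSMB9: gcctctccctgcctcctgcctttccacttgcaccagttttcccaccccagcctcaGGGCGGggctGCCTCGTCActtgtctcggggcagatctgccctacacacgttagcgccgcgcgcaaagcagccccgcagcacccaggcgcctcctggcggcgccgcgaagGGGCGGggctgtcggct
PSMD5: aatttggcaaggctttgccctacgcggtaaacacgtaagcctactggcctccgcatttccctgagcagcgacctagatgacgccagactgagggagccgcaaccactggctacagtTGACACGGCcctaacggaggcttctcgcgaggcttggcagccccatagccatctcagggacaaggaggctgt

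In these stretches PSMB9 held the GC box GGGCGG at 2 places and the antioxidant response element core TGACNNNGC once, on the minus strand of the gene. PSMD5 held that core once, and PSMB8 held none of the motifs searched. Over the whole windows before the start, which were at hand for 37 members (not for PSMA7, PSMB1, PSMB6, PSMB7 and PSMD4), TGACNNNGC occurred in 27% of members and 11% of 27303 promoters of the same length, on either strand. The GC box occurred in 64.9% of members and 42.3% of promoters, and the CCAAT box CCAAT in 45.9% and 33%. The interferon-stimulated response element (GAAA, any 2 bases, GAAA) occurred in 10.8% and 3.07%, and the gamma-activated site TTCNNNGAA in 10.8% and 6.78%. The members' windows also had more CpG dinucleotides, with a median of 19 against 11, and a median GC content of 61.6% against 58%. These shares describe letters in a window and were not tested.

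Most subunits were abundant in both lines. The median of the 42 members' mean levels was 85.6 scaled CPM in U2OS DMSO and 68.1 in HEK293T DMSO replicates 22 to 25, against 11.7 and 12.3 for expressed genes. In U2OS DMSO the highest member was PSMD1, a scaffold of the 19S base, at 657 ± 138 scaled CPM (SD, n = 4), followed by PSMA7, an alpha ring subunit, at 612 ± 48.1. In HEK293T DMSO PSMA7 led at 294 ± 21.3, next to the ubiquitin receptor PSMD4 at 293 ± 13.9. PSMB10, the inducible counterpart of PSMB7, was lowest in both, at 0.274 ± 0.371 and 0.190 ± 0.381, under the floor. The alpha ring subunit PSMA6 was low for a core subunit, at 6.13 ± 0.955 in U2OS DMSO and 4.31 ± 1.89 in HEK293T DMSO. Its last 500 bases overlap another annotated gene on the same strand, AL121594.1, and the part of this overlap in the count was not tested (PSMA6 and the comparison with its ring were singled out after its value was seen).

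**Figure D1:**
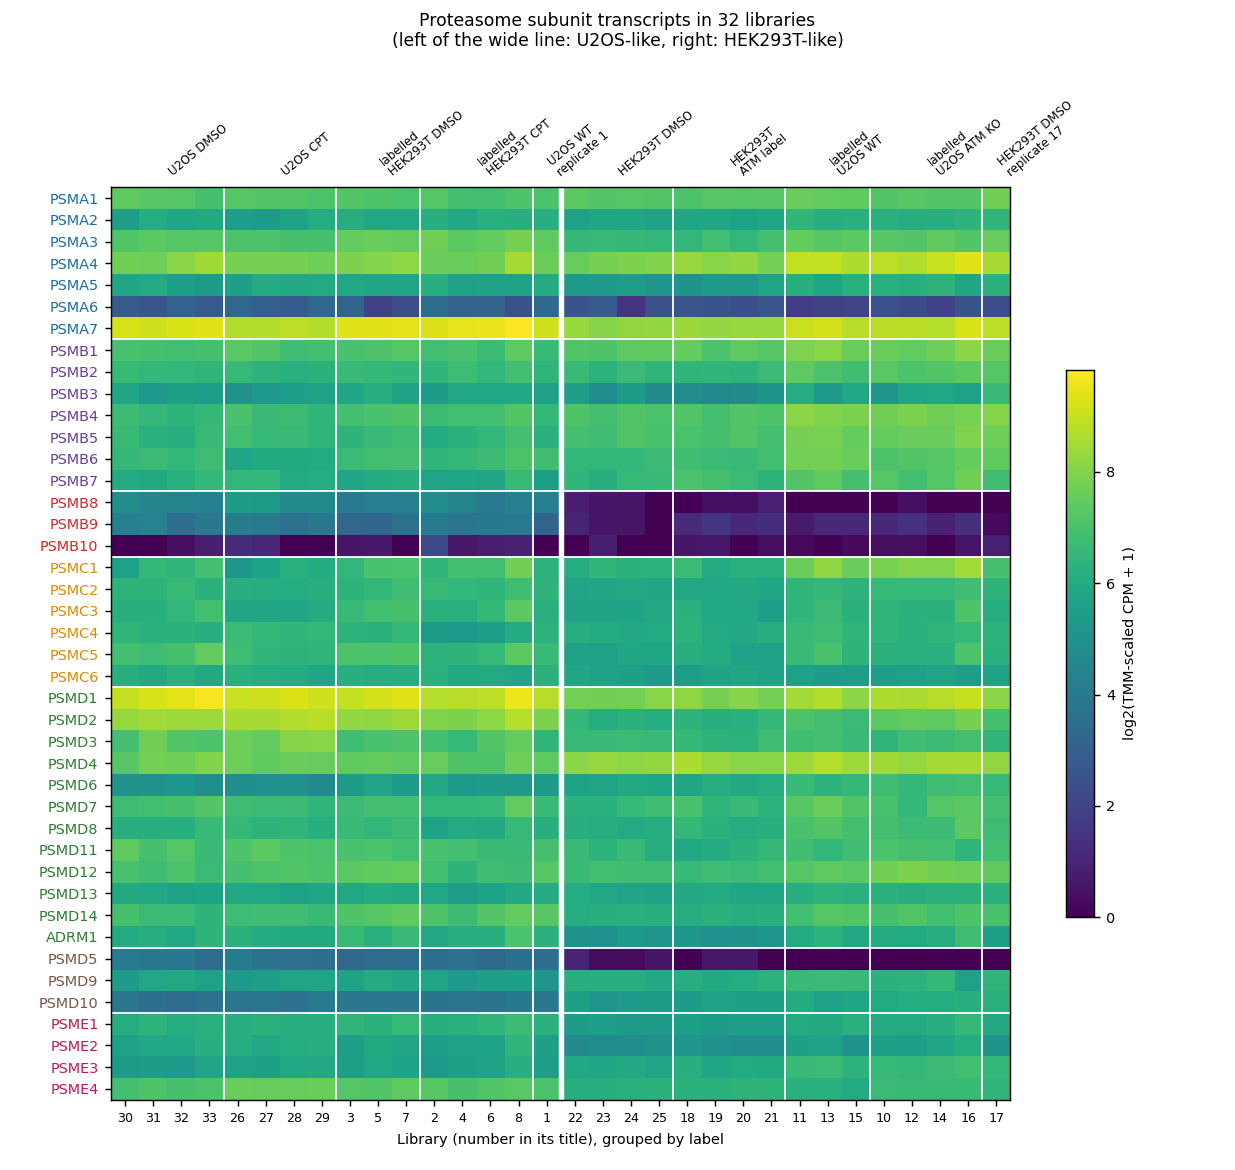
Levels of the 42 members (rows, by role) in the 32 libraries (columns, grouped by label), as log2 of scaled CPM plus 1. PSMB8, PSMB9 and PSMD5 are dark to the right of the wide line, in the HEK293T-like libraries, PSMB10 is dark throughout, and PSMA7 and PSMD1 are among the brightest rows.

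Together the members made up 0.361% to 0.692% of the counts on genes. Among HEK293T-like libraries their summed level was 5103 to 6724 scaled CPM in replicates 10 to 17 and 3376 to 4001 in replicates 18 to 25, with no overlap, although replicate 17 and replicates 22 to 25 carry the same label. The libraries of these 2 number ranges therefore were not mixed within a main comparison.

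The 2 cell lines differed in many proteasome transcripts, with the largest log2 differences at the inducible subunits PSMB8 and PSMB9 and the assembly chaperone PSMD5. In U2OS DMSO against HEK293T DMSO replicates 22 to 25, 22 members were higher (32% of the 19739 genes tested), 8 were lower (30.1% of genes) and 12 did not pass an adjusted p under 0.05 in edgeR's quasi-likelihood test, corrected over all genes tested. With a log2 fold change over 1 as well, 9 were higher (21.8% of genes) and 1 lower (18.1%). The groups did not overlap for 18 higher members (27.9% of genes) and 7 lower (26.8%). The members' median log2 fold change was 0.46 and that of all genes 0.01. With 2 different lines, and in bulk RNA in general, fewer cells with a transcript and less RNA per cell cannot be told apart. Adding HEK293T DMSO replicate 17, which has the higher summed level, left 18 higher and 9 lower members and a median of 0.18.

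PSMB8, the inducible counterpart of PSMB5, lies at chr6:32840717-32844703 (minus strand, GENCODE 29, GRCh38) in the MHC region. Its 4 U2OS DMSO libraries stood at 27.8, 21.4, 20.4 and 19.1 scaled CPM and its HEK293T DMSO libraries at 0.781, 0.508, 0.442 and 0. The groups did not overlap, and the HEK293T values were near or under the floor. The log2 difference was 5.58 (SE 0.33, adjusted p = 2.0e-16), from 296 counts against 7, a ratio of 51.0 with a 95% counting interval of 24.4 to 128.

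PSMB9, the inducible counterpart of PSMB6, is annotated at chr6:32844136-32859585 (plus strand), a span whose beginning overlaps PSMB8, while the RefSeq start used for its upstream stretch lies at chr6:32854192. It stood at 18.2, 19.6, 10.5 and 14.2 scaled CPM in U2OS DMSO and 1.04, 0.508, 0.442 and 0 in HEK293T DMSO, again without overlap. The log2 difference was 4.89 (SE 0.37, adjusted p = 1.3e-13), with 207 counts against 8, a ratio of 31.2 (15.5 to 73.2). PSMB10, at chr16:67934502-67937087 (minus strand), gave 4 counts against 3, a ratio of 1.61 with an interval of 0.272 to 11, so that a difference was not detectable at this depth. Its last 500 bases overlap AC040162.1 on the same strand, and the part of this overlap in the count was not tested. The inducible share at each catalytic site was taken as the inducible level over the sum of the pair. It was 20.8% ± 2.85 for PSMB8 with PSMB5 and 13.6% ± 3.05 for PSMB9 with PSMB6 in U2OS DMSO, and 0.352% ± 0.272 and 0.549% ± 0.471 in HEK293T DMSO (SD, n = 4).

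PSMD5, a chaperone that holds ATPases of the 19S base during assembly, lies at chr9:120815496-120842984 (minus strand). It stood at 15.2, 14.8, 14.5 and 10.2 scaled CPM in U2OS DMSO and at 1.04, 0.254, 0.221 and 0.524 in HEK293T DMSO. The difference was 4.70 on the log2 scale (SE 0.35, adjusted p = 1.1e-13), or 181 counts against 8 (ratio 27.3, 13.6 to 64.2). All 8 libraries of replicates 10 to 17 had 0 counts for PSMD5, which allows up to 0.458 to 0.859 scaled CPM. The flanking genes on the same strand were expressed in both lines, FBXW2 at 67.9 in HEK293T DMSO and 46.9 in U2OS DMSO and PHF19 at 49.2 and 61.1. Another base chaperone, PSMD10 (gankyrin, chrX:108084207-108091618, minus strand), went the other way, with 13.8, 11, 9.90 and 11.8 scaled CPM in U2OS DMSO against 47.4, 35.0, 38.9 and 39.6 in HEK293T DMSO (log2 difference -1.77, SE 0.16, adjusted p = 7.5e-12). The base chaperone PSMD9 was lower in U2OS by a smaller amount (-0.37, SE 0.13, adjusted p = 0.011), a call lost without U2OS DMSO replicate 30 (adjusted p = 0.055).

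**Figure D2:**
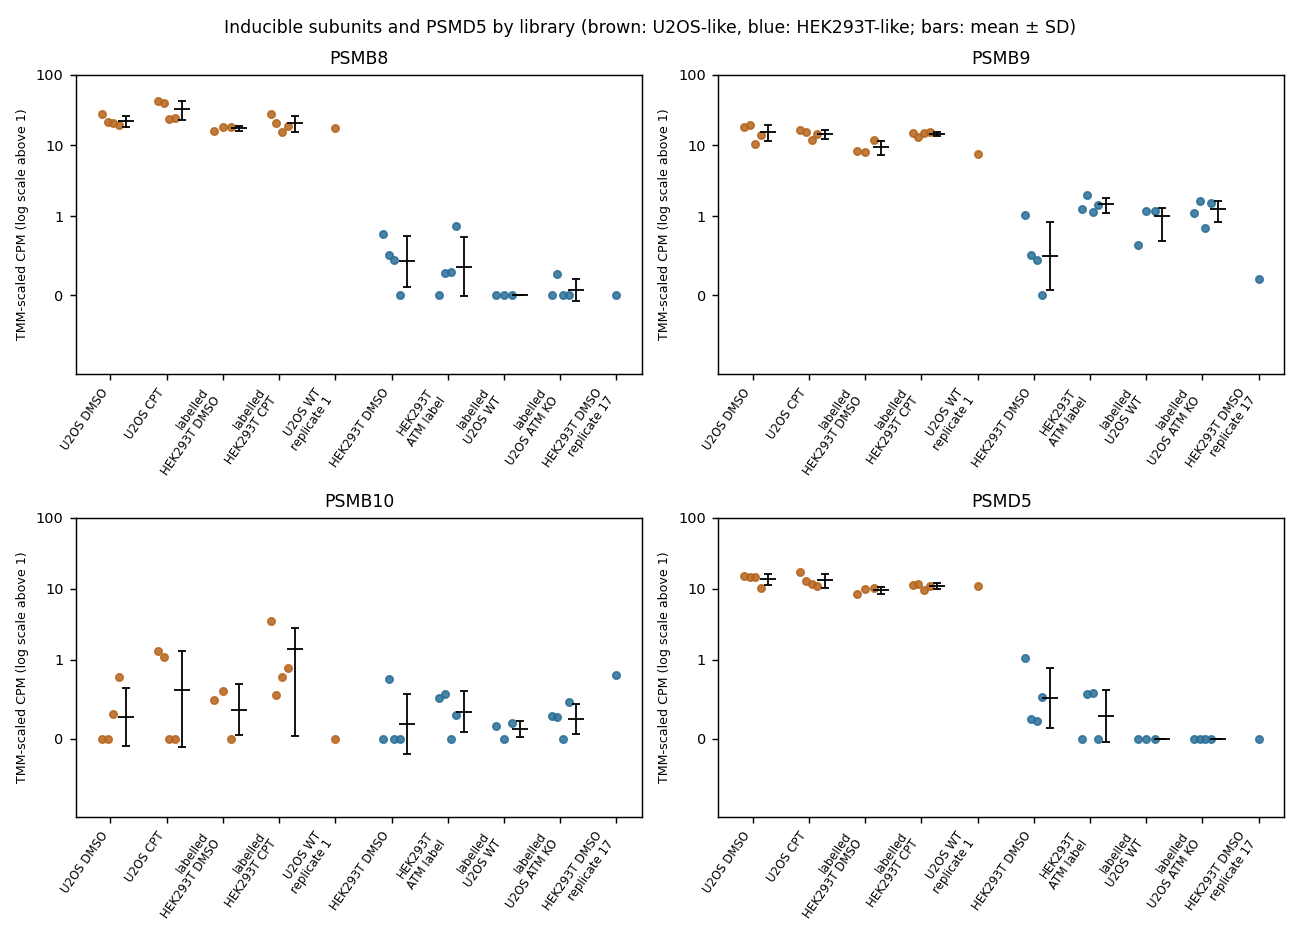
Scaled CPM of PSMB8, PSMB9, PSMB10 and PSMD5 in each library, by label (axis linear up to 1 and logarithmic above, with mean and SD bars for groups of 3 or 4). PSMB8, PSMB9 and PSMD5 lie above 7 scaled CPM in all 16 U2OS-like libraries and below 2 in all 16 HEK293T-like ones, while PSMB10 overlaps.

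Over all 32 libraries, labels aside, 5 members were higher in every U2OS-like than in any HEK293T-like library: PSMB8, PSMB9, PSMD5, PSMD2 and PSME4 (8.65% of 23638 genes). For PSMD4 and PSMD10 (8.58% of genes) the order was reversed. The libraries were called by marker genes, of which none is a member.

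Most genes of the 19S particle were higher in U2OS DMSO than in the HEK293T DMSO libraries of the main comparison. Those controls lie in the number range with the lower summed member level. Over all libraries, labels aside, PSMD2 was the only 19S subunit higher in every U2OS-like than in any HEK293T-like library. PSMD4 was lower in each, and the other 19S subunits overlapped. The values below are for the main comparison. PSMD2 (chr3:184298709-184309054, plus strand), a scaffold that holds ubiquitin receptors and shuttle factors, stood at 320, 357, 334 and 333 scaled CPM in U2OS DMSO and 91.9, 69.6, 79.6 and 66.9 in HEK293T DMSO. Its log2 difference of 2.14 (SE 0.12, adjusted p = 1.5e-17) had the smallest adjusted p among the members. PSMD1, its partner scaffold, differed by 1.53 (adjusted p = 8.5e-13). Of the 6 ATPases, 5 were higher (32% of all genes), and PSMC1 did not pass (0.13, adjusted p = 0.48). The ATPase PSMC5 (1.36) and the ubiquitin receptor ADRM1 (1.05) were also past a log2 fold change of 1 and were named after their values were seen. Of the 12 other 19S subunits, 7 were higher (32% of all genes), while PSMD6 (-0.79) and the receptor PSMD4 (-0.49) were lower (30.1% of all genes).

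Of the 7 alpha subunits of the 20S core 3 were higher (32% of all genes), PSMA7 by 1.07 (adjusted p = 6.5e-11), and none lower (30.1% of all genes). Of the 7 constitutive beta subunits 1 was higher and 3 lower: PSMB5, which carries the chymotrypsin-like site, by -0.54 (SE 0.12, adjusted p = 2.2e-04), PSMB4 by -0.51 and PSMB1 by -0.31. PSMB6, which carries the caspase-like site, showed 0.08 (95% interval -0.14 to 0.30). PSMB7, which carries the trypsin-like site, showed -0.26 (adjusted p = 0.070), and its call is made without U2OS DMSO replicate 33 (-0.38, adjusted p = 0.0063) or HEK293T DMSO replicate 23 (-0.35, adjusted p = 0.023). Among activators, which cap the core in place of 19S, PSME2 (1.14) and PSME1 (0.83), the pair that interferon induces, were higher. So was the large activator PSME4 (0.80), and the nuclear activator PSME3 was lower (-0.39). These values too rest on the controls with the lower summed member level. Over all libraries, labels aside, every member named in this paragraph but PSME4 overlapped between the lines. PSMA7 ran from 415 to 911 scaled CPM in U2OS-like and from 264 to 621 in HEK293T-like libraries.

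**Figure D3:**
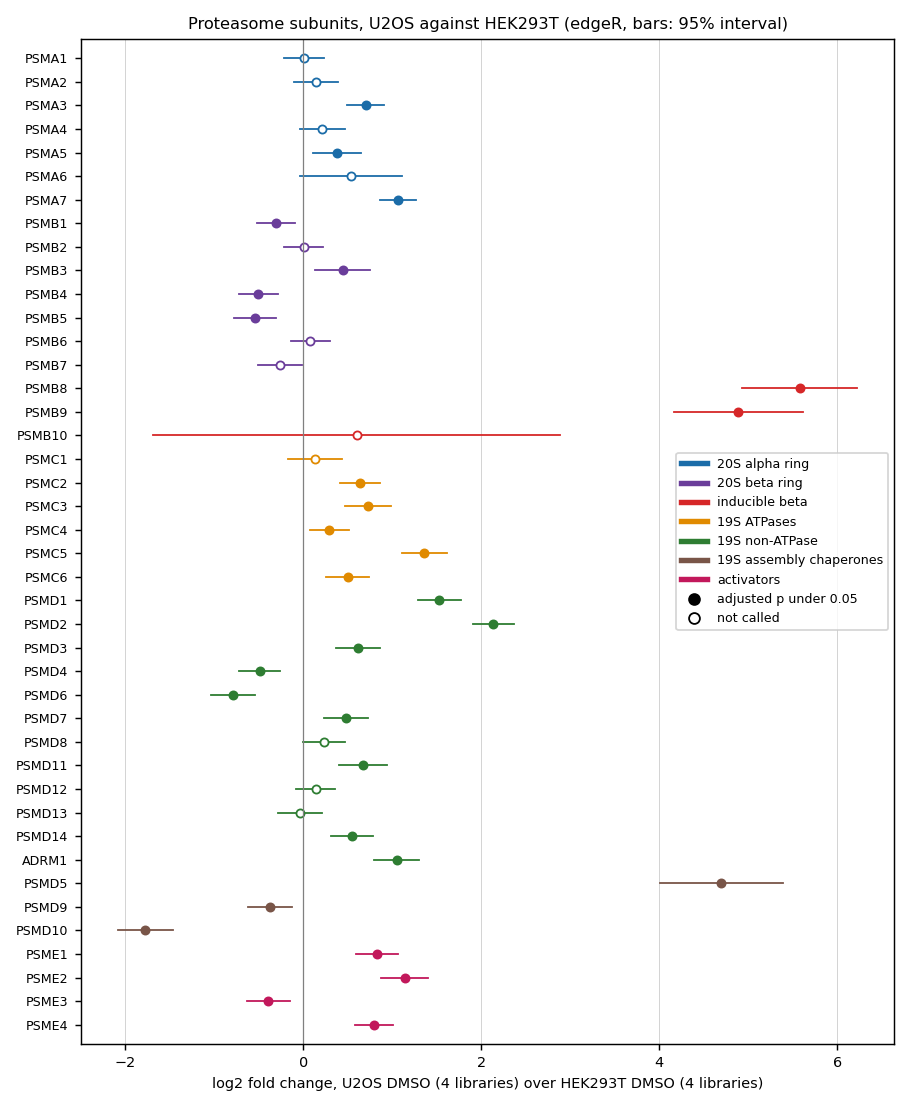
Log2 fold change of each member in U2OS DMSO over HEK293T DMSO (4 libraries each), with 95% intervals, coloured by role, filled where the adjusted p was under 0.05. PSMB8, PSMB9 and PSMD5 lie near 5, PSMD2 at 2.14 and PSMD10 at -1.77, while the 20S beta ring lies around 0.

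Genes around the proteasome also differed between the lines, where 32% of all genes tested were higher in U2OS and 30.1% lower. Of 15 genes of MHC class I presentation, 13 were higher in U2OS, led by the class I transactivator NLRC5 (2.96, from 54 counts against 8) and the peptide loading factor TAPBP (2.82), and HLA-C was lower (-0.31). TAP1, a peptide transporter whose RefSeq start lies 488 bases from that of PSMB9 on the other strand, was higher by 1.70 (named after its value was seen). Of 10 genes of the NFE2L1 pathway, 6 were higher, with the ER degradation adaptor SEL1L at 2.33 and NFE2L1 itself at 2.25, and 3 were lower, with DDI2, the protease that processes NFE2L1, at -0.90 and OGT at -0.70. Of 8 tested genes for 20S assembly and the like, PSMG2 was higher (2.12), and PSMG1, its partner in alpha ring assembly, was lower (-2.23), as was PSMG4 (-2.03). Of 15 proteasome-associated and shuttle factors, 3 were higher and 6 lower: the deubiquitinase USP14 (1.43) and the ligase UBE3A (0.88) led one way and the deubiquitinase UCHL5 (-3.02) and the ligase UBE3C (-2.15) the other. The ubiquitin gene UBB was lower (-0.97). These lists were chosen with earlier results of these data known.

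In U2OS cells labelled CPT against DMSO, both fitting their line, subunits did not move together. Of the 42 members, 4 rose (16.6% of 19080 genes), 5 fell (15.3% of genes) and 33 did not pass, and no member passed a log2 fold change of 1 (7.97% of genes higher, 5.50% lower). The groups did not overlap for 3 higher (15.5% of genes) and 6 lower members (14.6%). The median log2 fold change was -0.02 for members and 0.01 for all genes. The members called, 9.52% higher and 11.9% lower, thus made up smaller shares than among all genes, a difference that was not tested.

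PSMB6 (chr17:4796144-4798503, plus strand) fell most clearly. It stood at 54.3, 62.2, 61.7 and 64.1 scaled CPM in CPT and at 93.8, 102, 90.6 and 109 in DMSO, without overlap. The change was -0.70 (SE 0.12, adjusted p = 2.0e-05), while PSMB5 (0.21, 95% interval -0.05 to 0.46) and PSMB7 (0.09, -0.18 to 0.36), with the other catalytic sites, did not pass. PSMA7 fell from 597, 560, 613 and 675 scaled CPM in DMSO to 420, 418, 456 and 415 in CPT (-0.51, SE 0.11, adjusted p = 2.9e-04). The other 6 alpha subunits and the other 6 beta subunits did not pass.

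Of the 6 ATPases, which unfold the substrate, 3 fell, and the list's median was -0.40. PSMC3 changed by -0.60 (SE 0.14, adjusted p = 8.8e-04) without overlap of the groups, and PSMC5 by -0.52 (SE 0.13, adjusted p = 0.0031). PSMC1 changed by -0.61 (SE 0.19, adjusted p = 0.014), a call lost with DESeq2 (adjusted p = 0.19) and without CPT replicate 26 (0.086), CPT replicate 27 (0.053) or DMSO replicate 33 (0.060). PSMC1 also has a pseudogene, PSMC1P1, with 4.64% as many counts. PSMC4 did not pass (0.26, adjusted p = 0.087), though all its CPT libraries lay above its DMSO ones, and 15.3% of all genes fell.

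PSME4 (chr2:53864067-53970840, minus strand), which encodes the activator PA200, rose. Its CPT libraries stood at 191, 187, 184 and 197 scaled CPM and its DMSO libraries at 119, 140, 125 and 130, without overlap (0.57, SE 0.11, adjusted p = 9.2e-05). PSME1 (0.00), PSME2 (0.15) and PSME3 (0.31, adjusted p = 0.078) did not pass, and PSME3 is called without DMSO replicate 33 (0.42, adjusted p = 0.014). PSMD3, a 19S lid subunit, rose by 0.60 (SE 0.15, adjusted p = 0.0016), though its groups overlapped. PSMD2 rose by 0.28 (adjusted p = 0.047), a call lost with no filter (adjusted p = 0.072), in 1 fit of all libraries (0.14), scaled by library size alone (0.10, adjusted p = 0.51) and without CPT replicates 27, 28 or 29 or DMSO replicates 30, 32 or 33 (adjusted p = 0.058, 0.11, 0.17, 0.090, 0.12 and 0.054 in that order). The chaperones PSMD5 (-0.04), PSMD9 (-0.15) and PSMD10 (0.24) did not pass.

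PSMB8 rose by 0.58 (SE 0.18, adjusted p = 0.012), with 42.5, 39.99, 24.0 and 24.7 scaled CPM in CPT and 27.8, 21.4, 20.4 and 19.1 in DMSO. The groups overlapped, and the call is lost without CPT replicate 26 (0.43, adjusted p = 0.089) or CPT replicate 27 (0.47, adjusted p = 0.076) and scaled by library size alone (0.40, adjusted p = 0.099). PSMB9 did not pass (-0.08, 95% interval -0.46 to 0.31), and PSMB10 stayed at the floor. The inducible share was 24.7% ± 4.38 against 20.8% ± 2.85 for PSMB8 with PSMB5, and 19.5% ± 3.07 against 13.6% ± 3.05 for PSMB9 with PSMB6, of which PSMB6 is the one that changed.

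The split of calls depended on the scaling. Scaled by library size alone, 2 members rose and 10 fell, while the median of all genes was -0.16 and that of members -0.19. The members' share of the counts was 0.408% ± 0.0128 in CPT and 0.481% ± 0.0103 in DMSO, and their summed scaled level 4676 ± 85.0 and 4921 ± 308 scaled CPM (SD, n = 4). TMM factors were 0.853 to 0.886 in CPT and 0.917 to 1.05 in DMSO, and the summed U2OS markers 2005 to 2214 scaled CPM in CPT and 1192 to 1505 in DMSO. Their part in the result was not tested.

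Around the proteasome, 10 of 15 MHC class I genes rose in CPT (16.6% of all genes) and none fell (15.3% of all genes). TAP1 stood at 82.0, 97.4, 98.7 and 99.3 scaled CPM in CPT against 32.2, 51.0, 29.7 and 32.8 in DMSO (1.39, adjusted p = 3.7e-09), and TAP2 rose by 0.83. Of the assembly genes PSMG3 (-0.50) and PSMG2 (-0.39) fell. In the NFE2L1 list, SEL1L rose (0.32), and HCFC1 (-0.66), a cofactor of OGT, and NFE2L1 (-0.30) fell. The E1 enzyme UBA6 rose (0.33) and UBB fell (-0.41), and among the associated and shuttle factors ZFAND2A, a partner of the 19S under stress, rose (0.89).

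**Figure D4:**
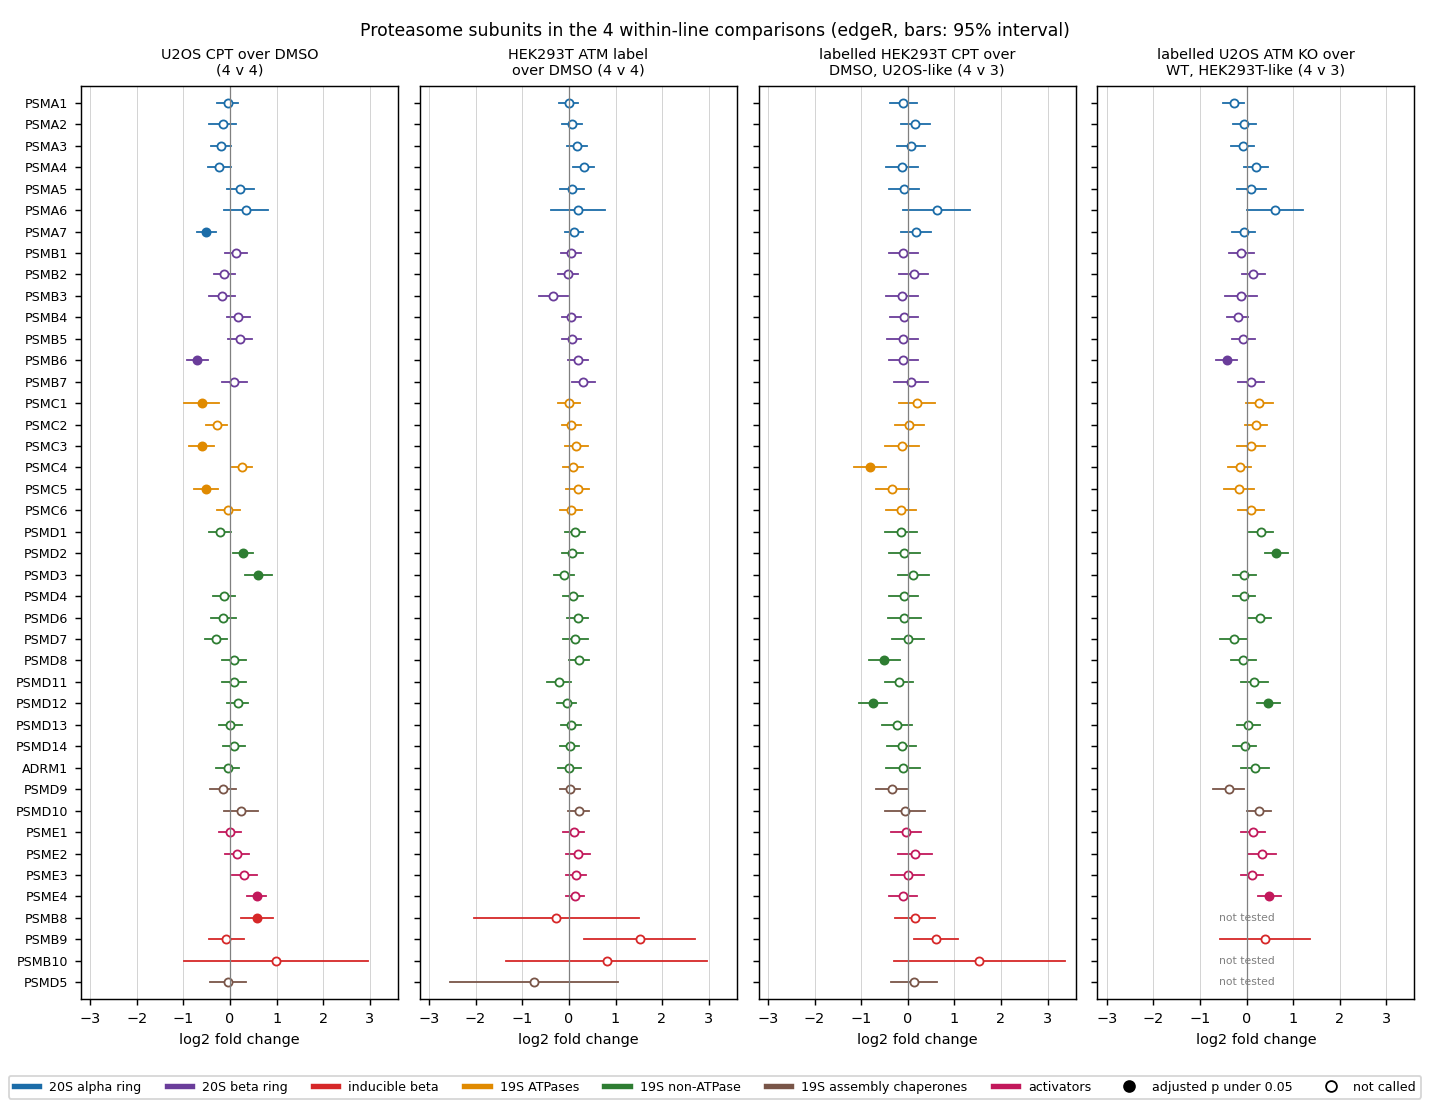
Log2 fold change of each member in the 4 comparisons within a line (panels, with the libraries per arm), with 95% intervals, coloured by role, filled where the adjusted p was under 0.05. In U2OS CPT 4 members lie above and 5 below 0 with filled points, none is filled under the HEK293T ATM label, and 3 and 4 are filled in the others.

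In the libraries labelled HEK293T ATM KO against HEK293T DMSO replicates 22 to 25, no member was called by edgeR's quasi-likelihood test (0.00% of 18413 genes higher, 0.00543% lower), nor by its likelihood ratio test or DESeq2. At an unadjusted p under 0.05 there were 4 members (5.53% of genes): PSMA4 (0.32), PSMB7 (0.31), PSMB3 (-0.33) and PSMB9 (1.52), with adjusted p from 0.85 to 0.89. The median was 0.08 for members and 0.00 for all genes, and that of members -0.03 with replicate 17 added to the controls and -0.21 with all libraries labelled HEK293T DMSO, which mixes both lines. PSMB9 lay higher without overlap of the groups (1.52% of genes), the one member that did in either direction (1.56% of genes lay lower), with 1.28, 1.99, 1.16 and 1.47 scaled CPM against 1.04, 0.508, 0.442 and 0. These values came from 4 to 7 counts against 0 to 4, and the interval of the log2 difference ran from 0.33 to 2.70. For the constitutive sites PSMB5 and PSMB6 the intervals were -0.14 to 0.27 and -0.01 to 0.40. The activators ranged from 0.10 (PSME1) to 0.19 (PSME2), and the chaperones PSMD9 and PSMD10 showed 0.03 and 0.21. PSMB8, PSMB10 and PSMD5 had too few counts for a narrow interval, which for PSMD5 ran from -2.55 to 1.06. None of the genes of the related lists was called.

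In the U2OS-like libraries labelled HEK293T CPT (replicates 2, 4, 6 and 8) against those labelled HEK293T DMSO (replicates 3, 5 and 7), no member was higher (4.89% of 18515 genes) by edgeR's quasi-likelihood test, its likelihood ratio test or DESeq2, and 3 were lower (5.55%) by the first. At an unadjusted p under 0.05 there were 5 members in either direction (23% of genes). PSMC4 (chr19:39971005-39981441, plus strand), an ATPase of the base ring, stood at 39.6, 37.8, 45.0 and 66.1 scaled CPM under the CPT label and 80.7, 78.7 and 93.2 under the DMSO label (-0.81, SE 0.17, adjusted p = 0.0013). PSMD12 (chr17:67337916-67366627, minus strand), a lid subunit, stood at 116, 82.9, 108 and 107 against 164, 171 and 181 scaled CPM (-0.75, SE 0.15, adjusted p = 7.8e-04). Neither overlapped between the groups (9.85% of genes lay lower in this way). The lid subunit PSMD8 was lower by a smaller amount (-0.50, adjusted p = 0.049), and its groups overlapped.

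PSMD8 lost its call with DESeq2 (adjusted p = 0.063) and without CPT-labelled replicate 2, 4 or 6 (0.13, 0.11 and 0.17) or any DMSO-labelled replicate. Replicate 8 stood apart, with a summed member level of 6367 scaled CPM against 4348 to 4638 in replicates 2, 4 and 6, and without it 6 members were lower. PSMB9 stood at 15, 13.3, 14.9 and 15.5 scaled CPM against 8.42, 8.20 and 11.8, without overlap (1 higher member, 9.25% of genes), but did not pass (0.61, adjusted p = 0.11). PSMB8 (0.15), PSMB5 (-0.11), PSMB6 (-0.10), PSMB7 (0.07), PSMD5 (0.14), PSMD9 (-0.34), PSMD10 (-0.06) and PSME4 (-0.10) did not pass either. Neither did PSMB10 (1.54) or PSME1 (-0.04), PSME2 (0.16) and PSME3 (-0.01). Of the related genes, the chaperone PSMG1 (0.97) and UBE3C (1.12) were higher, and the proteasome inhibitor PSMF1 (-0.71), the segregase VCP (-0.67) and UBE3A (-0.51) lower.

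In the HEK293T-like libraries labelled U2OS ATM KO (replicates 10, 12, 14 and 16) against those labelled U2OS WT (replicates 11, 13 and 15), 39 of the 42 members passed the filter on low counts, PSMB8, PSMB10 and PSMD5 not. Of these, 3 were higher (15.8% of 19271 genes) and 1 lower (16.3%). PSMD2 stood at 163, 178, 165 and 226 scaled CPM under the ATM KO label and 133, 120 and 103 under the WT label (0.64, SE 0.13, adjusted p = 3.4e-04). PSME4 stood at 103, 97, 98.7 and 97.7 against 75.6, 75.4 and 62.9 (0.49, SE 0.13, adjusted p = 0.0038). PSMD12 stood at 213, 234, 215 and 200 against 149, 166 and 160 (0.47, SE 0.12, adjusted p = 0.0045).

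PSMB6 was the lower member, with 133, 143, 154 and 180 scaled CPM under the ATM KO label and 216, 218 and 190 under the WT label (-0.43, SE 0.12, adjusted p = 0.0067). None of the 4 overlapped between the groups, where 4 members in all lay higher (16.9% of genes) and 4 lower (18.1%). PSMB5 (-0.07), PSMB7 (0.10), PSMB9 (0.40) and PSMD10 (0.26) did not pass, nor did PSME1 (0.13), PSME2 (0.34) and PSME3 (0.12). PSMD9 (-0.39, adjusted p = 0.076) is called without ATM KO-labelled replicate 14 (-0.50, adjusted p = 0.033). Without WT-labelled replicate 13, 5 members were higher, and without ATM KO-labelled replicate 14 or 16, 2 were lower.

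Among all genes of this comparison, 15.8% were higher and 16.3% lower. The 20S maturation factor POMP was higher (0.40), and PSMG4 (-0.79), PSMG3 (-0.75), PAAF1 and PSMG1 were lower. In the NFE2L1 list UFD1 (0.65) and VCP (0.46), which extract proteins from the ER membrane, were higher and the deglycosylase NGLY1 (-0.48) lower. Of 15 associated and shuttle factors 4 were higher, led by ZFAND2A (0.81) and AKIRIN2 (0.59), which carries proteasomes into the nucleus, and 4 lower, among them ECPAS (-0.81). Of 15 MHC class I genes 5 were higher, led by IRF1 (1.31) and ERAP1 (0.96), and 2 lower, TAP2 (-1.83) and HLA-E (-0.45).

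The U2OS CPT comparison and the labelled U2OS ATM KO comparison share no library. The latter lies in HEK293T-like libraries whose labels went against their line. Calls shared by these comparisons are therefore not read as common to CPT and ATM loss. Of 39 members tested in both, 8 were called in the first and 4 in the second, and 3 were called in the same direction in both (9.11% of the 16438 genes tested in both): PSMB6 lower, PSMD2 and PSME4 higher. The PSMD2 call in the first is one of those that single libraries decide. PSMD12 was called in opposite directions in the labelled HEK293T CPT comparison (-0.75) and the labelled U2OS ATM KO comparison (0.47). Its values in U2OS CPT (0.17) and under the HEK293T ATM label (-0.05) did not pass.

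**Figure D5:**
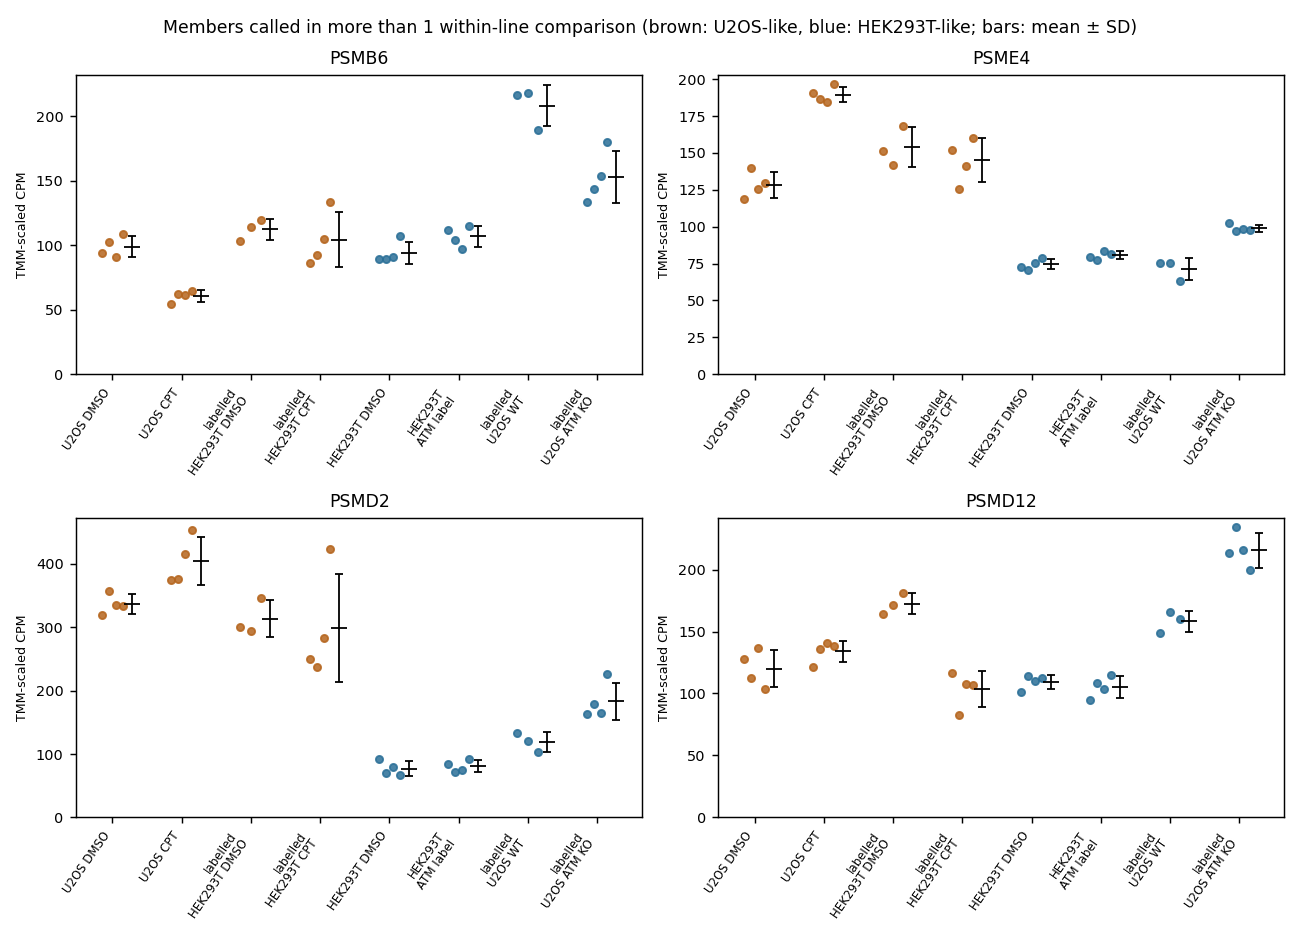
Scaled CPM of PSMB6, PSME4, PSMD2 and PSMD12, the members called in more than 1 comparison within a line, in each library by label, with mean and SD. PSMB6 is lower in U2OS CPT than in its DMSO and lower under the U2OS ATM KO label than under its WT label, and PSME4 and PSMD2 the reverse.

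Some members share sequence or position with other annotated genes, and whether counting used strand is not stated. PSMA3, PSMC1, PSMC2, PSMD6, PSMD7, ADRM1 and PSME1 overlap a gene on the opposite strand in their last 500 bases, for example ADRM1 with LAMA5. Reads of such pairs cannot be told apart if strand was not used. On the same strand, PSMA1, PSMA2, PSMA6, PSMB10, PSMD9 and PSME2 overlap another annotated gene there. The part of these overlaps in the counts was not tested. Annotated pseudogenes, 32 of 12 members, held at most 4.64% as many counts as their member.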

How the data were processed

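Libraries of both lines were made with a QuantSeq 3′ kit with UMIs. The authors deposited raw counts per gene, made with the Lexogen QuantSeq pipeline. Aligner settings, genome build and strand use are not given in the sources used here. Of the table, 60107 genes were used and 0 columns left out. The 5 summary rows held 10.9% to 40.6% of the counts and the 92 spike-in rows 3 counts in all, and both were left out. GENCODE 29 named 56531 genes.

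Libraries were grouped by the labels, and replicates carry their title number, which does not pair them. Per the study's methods they are independent. Each comparison was fitted in edgeR 4.0.16 (R 4.3.3) with TMM, over genes that exceeded 1 count in 2 or more libraries, the quasi-likelihood test and Benjamini-Hochberg adjustment over all genes. Called means adjusted p under 0.05, and 95% intervals are 1.96 SE. The method was tested on simulated data. Alternatives were the likelihood ratio test, DESeq2 1.42.0, RLE, other filters, 1 fit of all libraries, other controls and each library left out, and library size only, added after seeing the data.

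The members and lists were chosen with earlier results of these data known. Named were the catalytic pairs, chaperones and activators everywhere, up to 5 called members each way, the highest and lowest members per line and up to 2 called genes each way per related list. Some genes of these lists are not reported here.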

Additional observations from a re-analysis of the deposited data

Results flagged for a closer look

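In 10 of 101 groups of 4 libraries (9.9%), 1 library of a catalytic, chaperone, activator, or otherwise named member lay far from the other 3, by Dixon's test at the 95% level, where chance gives about 1 in 20. In U2OS CPT these were PSMA7 in replicate 28 (456 scaled CPM, others 415 to 420), PSMC5 in replicate 26 (110.0, others 83.3 to 87.6) and PSME1 in replicate 27 (79.6, others 69.2 to 70.8). In U2OS DMSO it was PSMD5 in replicate 33 (10.2, others 14.5 to 15.2). In HEK293T DMSO they were PSMB6 in replicate 25 (107, others 89.5 to 90.9), PSMD1 in replicate 25 (270.0, others 211 to 218) and PSMB10 in replicate 23 (0.762, others 0, all at or under the floor). Under the HEK293T CPT label they were PSMB10 in replicate 2 (3.52, others 0.556 to 0.890) and PSMB7 in replicate 8 (99.7, others 51.9 to 55.05). Under the U2OS ATM KO label it was PSMB5 in replicate 16 (240.2, others 182 to 191). Replicates 8 and 16 also had the highest summed member level of their groups, 6367 and 6724 scaled CPM. Their causes were not tested.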

How the results depend on the processing

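Single values were followed for the catalytic pairs, chaperones, activators and up to 5 called members each way per comparison. None of these reversed its direction when called, under any alternative run. Other named values, such as PSMC5 and ADRM1 in U2OS against HEK293T, were not followed in this way. In U2OS CPT against DMSO, library size only gave 2 higher and 10 lower members against 4 and 5, and leaving out 1 library gave 2 to 4 higher and 4 to 7 lower (2 higher without CPT replicate 27). Under the HEK293T ATM label each left-out library gave 0 higher and 0 lower. For the labelled HEK293T CPT comparison, all libraries labelled HEK293T DMSO as controls, which mixes both line profiles, gave 0 lower members against 3, and leaving out 1 library gave 0 higher and 2 to 6 lower (6 without replicate 8). For the labelled U2OS ATM KO comparison (3 higher, 1 lower), filterByExpr gave 5 higher, no filter 2 lower, 1 fit of all libraries 2 lower, and replicate 17 added 6 higher and 2 lower. All libraries labelled U2OS WT as controls, which again mixes profiles, gave 0 and 0 there, and leaving out 1 library 3 to 5 higher and 1 to 2 lower (5 without replicate 13, 2 lower without replicate 14 or 16). U2OS against HEK293T DMSO gave 20 to 24 higher and 7 to 9 lower members with 1 library left out, and library size only gave 17 and 9, with the median of all genes at -0.21. Except where the construction mixes lines, the cause of these shifts was not tested. No paired analysis was run, because the labels do not say which treated and control libraries came from the same repeat. Depth limits PSMB8 and PSMD5 in HEK293T-like libraries (0 to 4 counts), PSMB9 there (0 to 10) and PSMB10 in all (0 to 5), beside a floor of 3 counts.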
